A study of Mus musculus with 8 samples.

Results

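The genes described here are the nucleoporins, which build the nuclear pore, and the importins, transportins and exportins, which carry cargo through it. They were taken by name: every gene on the array called Nup, Kpna, Kpnb, Ipo or Tnpo with a number, or Xpo. The rule found 42 genes among the 28095 gene names on the array, and all 42 had a probe that was well above background on at least 2 arrays, as did 19555 genes in all. Of the 42, 20 were nucleoporins and 22 were transport receptors.

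The cells were CD8+ T cells from the spleens of OT-I mice with a C57BL6 background. All carried the OT-I T cell receptor (TCR) transgene, so that every group, the untreated one included, recognises the ovalbumin peptide SIINFEKL on H-2Kb. Cells had been purified magnetically with a pan T cell kit, and purity had been checked by flow cytometry for CD8α, B220 and CD11c. Each of the 8 single-colour arrays held cRNA made from total RNA. Untreated cells were on 2 arrays. Interferon beta (IFNβ) alone was on 1 array at 2 h and 1 at 7 h. TCR stimulation with SIINFEKL streptamers, soluble assemblies of the peptide with H-2Kb, was on 1 array at 1 h and 1 at 6 h. The same 1 h and 6 h stimulations after 1 h of IFNβ were on 1 array each. The labels used here do not say how many mice gave the cells.

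Nuclear pores are built from a scaffold of ring complexes, a channel of flexible proteins rich in phenylalanine-glycine repeats, and fibres that extend into the cytoplasm and the nucleus. Importins and exportins bind cargo on one side, pass the channel by touching these repeats, and release it on the other side under the control of the small GTPase Ran. Resting T cells are small, with condensed chromatin and a thin rim of cytoplasm. After antigen they enlarge, make ribosomes and move transcription factors such as NFAT and NF-κB into the nucleus before they divide.

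Each treated condition was on a single array, and a test therefore joins the conditions that have a treatment in common. The pair of untreated arrays differed at 152 repeated probes with an SD of 0.0568 on the log2 scale, where the spots' own scatter gave 0.0549. Nothing in the labels says that they came from separate cultures. They were therefore averaged and counted as 1 sample, so that each of the 7 samples is a different condition. The p-values measure how far these conditions depart from a sum of IFNβ, 1 h TCR and 6 h TCR effects, not a spread between replicates. All times of IFNβ count as 1 effect in that sum, and the number of arrays limits the precision. A TCR estimate is set against the arrays with IFNβ alone as well as the untreated ones. Its fold is therefore not the ratio to the untreated arrays, and the 2 differ where IFNβ alone departed from untreated. Per array, the 75th percentile of signal was 808.8 to 1255.7 intensity units. Between 26065 and 29533 of 43379 spots were well above background. Values below are scaled signal, with the 75th percentile of each array set to 1500, or log2 differences of it. The arrays lay on 2 slides of 4: slide 1 held an untreated array, IFNβ 2 h and both 1 h TCR arrays, and slide 2 an untreated array, IFNβ 7 h and both 6 h TCR arrays. Which of the 1 h TCR arrays had IFNβ differed between the deposited scanner files and the deposited table of values, and the table's naming is used here. In bulk RNA, fewer cells of a type and less RNA per cell cannot be told apart.

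**Figure D1:**
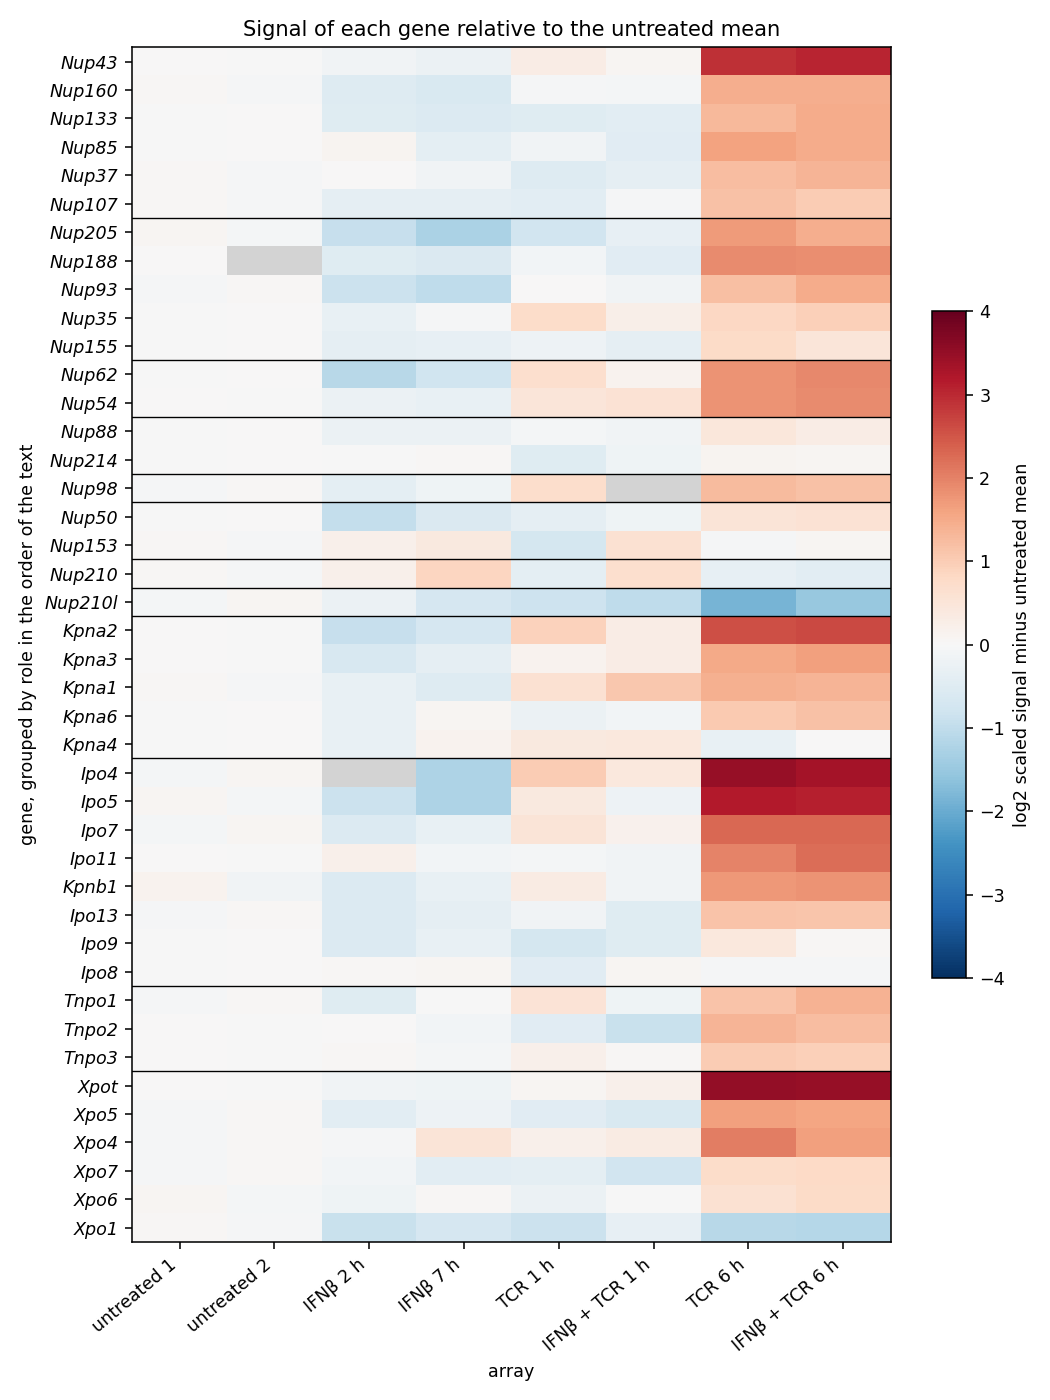
Log2 scaled signal of each of the 42 genes on each of the 8 arrays, minus the mean of the untreated arrays; rows are genes grouped by role, columns are arrays, and grey cells are arrays left out because the spot was an outlier. Both 6 h TCR columns are red for most genes, Ipo4 and Xpot most deeply, and blue for Xpo1, Nup210 and Nup210l.

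After 6 h of TCR stimulation most of the pore and transport receptor genes rose. Of the 42 genes, 33 were higher and 1 was lower than in cells without TCR stimulation at an adjusted p under 0.05 (limma, Benjamini-Hochberg over all genes tested), which is 78.6% higher. Over all genes tested, 22.6% were higher and 22.7% lower. The median log2 difference was 1.39 over the 42 genes and 0.056 over all genes. Each of the 33 genes had both 6 h TCR arrays above every array without TCR, and 28 of them rose at least 2-fold. Both counts come from the values that made the calls, and neither was made over all genes. The count of higher genes was 26 of 42 within slide 2 alone, where 15.9% of all genes were higher. After another background correction (normexp) it was 20, where 10.4% of all genes were higher. Leaving out the array for IFNβ with 6 h TCR left 1 array at 6 h. The median was then 1.34 over the 42 genes and 0.13 over all genes. Scaling to each array's median moved the median of all genes to 0.37 and the share of called genes that were higher from 49.9% to 62.6%. It called 34 of the 42 genes higher, beside 30.1% of all genes.

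**Figure D2:**
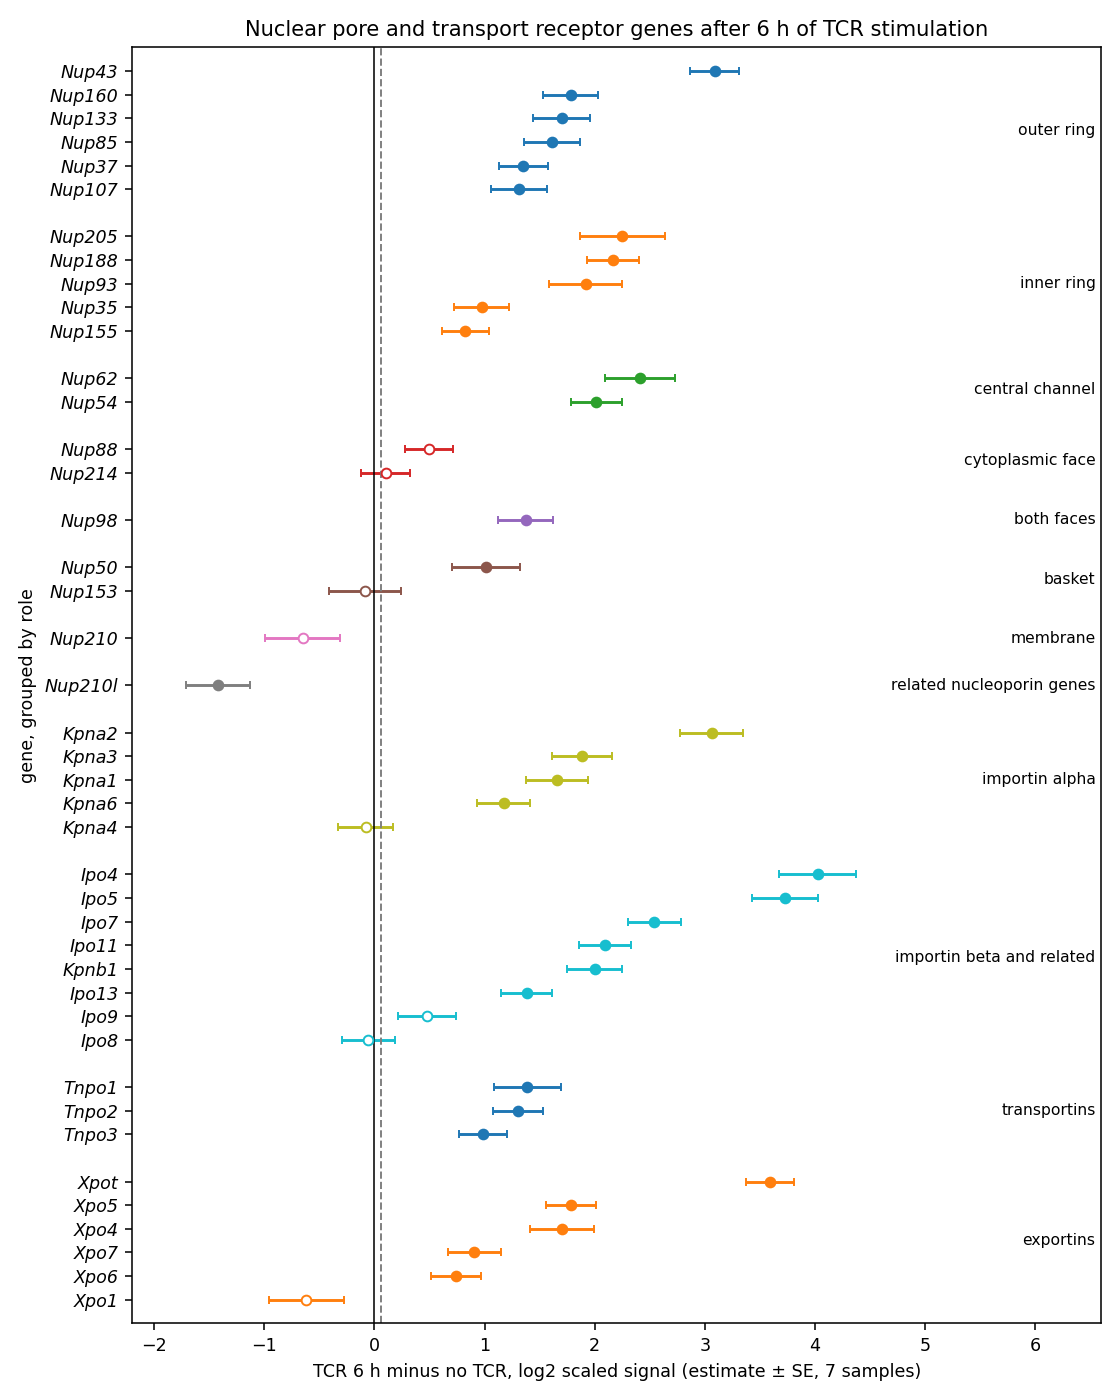
Log2 difference of scaled signal between cells with 6 h of TCR stimulation and cells without it, as limma estimate ± SE over 7 samples, for the 42 genes grouped by role; filled points passed an adjusted p of 0.05, the solid line is 0 and the dashed line the median of all genes. All 6 outer ring and 5 inner ring genes lie to the right of both lines, while Nup88, Nup214, Nup153, Nup210, Kpna4, Ipo8, Ipo9 and Xpo1 are open points.

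The outer ring of the pore, or Y complex, is the scaffold that coats the cytoplasmic and nuclear rims. All 6 of its genes rose at 6 h. Nup43, a small propeller-shaped subunit of the complex, rose most. Its scaled signal was 2334 and 2306 on the untreated arrays, 2115 with IFNβ for 2 h, 1954 with IFNβ for 7 h, 2843 with 1 h TCR and 2434 with IFNβ and 1 h TCR. It was 17655 with 6 h TCR and 19007 with IFNβ and 6 h TCR. The 6 arrays up to 1 h lay close together, and both 6 h arrays were far above them. The estimate at 6 h was 3.09 ± 0.23 (SE), or 8.51-fold, with an adjusted p of 0.00041 by limma. The Nup43 probe spans chr10:7387919-7389406 of build mm9. Nup160 rose by 1.78 and Nup133 by 1.70, both long scaffold proteins that are made of a propeller and a helical stack. Nup85 rose by 1.61, Nup37 by 1.35 and Nup107 by 1.31.

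The inner ring lines the pore membrane and anchors the channel, and all 5 of its genes rose. Nup205, one of its 2 large scaffold proteins, had a scaled signal of 982 and 896 untreated, 491 with IFNβ for 2 h and 388 with IFNβ for 7 h. Its signal was 548 with 1 h TCR, 747 with IFNβ and 1 h TCR, 3071 with 6 h TCR and 2559 with IFNβ and 6 h TCR. Both 6 h arrays were above every other array, and both arrays with IFNβ alone were below the untreated ones. The estimate at 6 h was 2.25 ± 0.38, or 4.76-fold (adjusted p 0.0045, limma). Nup188, the other large scaffold protein, rose by 2.17, from a fit that left out its outlier spot on 1 untreated array. Nup93, which joins the scaffold to the channel proteins, had 4982 and 5318 untreated, 2859 and 2533 with IFNβ for 2 h and 7 h, 5150 with 1 h TCR, 4662 with IFNβ and 1 h TCR, 11801 with 6 h TCR and 14552 with IFNβ and 6 h TCR. Its 1 h arrays overlapped the untreated ones and its 6 h arrays did not. The Nup93 estimate was 1.92 ± 0.33, while the membrane-binding Nup35 rose by 0.98 and Nup155 by 0.83.

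Both genes of the central channel rose. Nup62, the best known of the repeat proteins that cargo receptors touch, had 2695 and 2744 untreated, 1250 with IFNβ for 2 h, 1556 with IFNβ for 7 h, 4300 with 1 h TCR and 3020 with IFNβ and 1 h TCR. It reached 9355 with 6 h TCR and 10307 with IFNβ and 6 h TCR. Its arrays lay in steps, with IFNβ alone lowest, then untreated, 1 h TCR and 6 h TCR, and no overlap between these sets. The estimate at 6 h was 2.41 ± 0.32, or 5.32-fold (adjusted p 0.0017, limma). Nup54, its partner in the channel, rose by 2.01. Nup98, a repeat protein on both faces of the channel whose gene also encodes the outer ring protein Nup96, rose by 1.37, from a fit without its outlier spot on the array for IFNβ with 1 h TCR.

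Of the genes of the cytoplasmic fibres and of the nuclear basket, 1 of 4 rose. Neither cytoplasmic gene among the 42 passed the test at 6 h. Of others of that face with different names, Rae1 (1.73), Ddx19a (1.70) and Nupl2 (1.44) were higher and Gle1 (-1.05) was lower. Ranbp2 (0.53) and Ddx19b (0.49) did not pass, nor did the basket gene Tpr (-0.39). Nup88, which holds Nup214 at the pore, had an estimate of 0.49 ± 0.22 (adjusted p 0.11, limma), and Nup214, a docking site for mRNA export factors, had 0.10. The signal of Nup88 was 20170 and 20624 untreated, 17291 with IFNβ for 2 h, 17451 with IFNβ for 7 h, 19302 with 1 h TCR, 18679 with IFNβ and 1 h TCR, 27672 with 6 h TCR and 24910 with IFNβ and 6 h TCR. The 6 h arrays of Nup88 were above the rest, though by less than those of the ring genes. In the basket, Nup50, which helps to release imported cargo, rose by 1.01 ± 0.31 (adjusted p 0.039, limma), a call that held in 8 of 19 alternative fits, and its other probes both had 1.66. Its signal was 5067 and 5287 untreated, 2686 and 3488 with IFNβ for 2 h and 7 h, 4077 with 1 h TCR, 4632 with IFNβ and 1 h TCR, 7426 with 6 h TCR and 7687 with IFNβ and 6 h TCR.

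Nup153, the basket protein that binds chromatin and import receptors, had an estimate of -0.08 ± 0.32 at 6 h. Its signal was 21212 and 20171 untreated, 23898 with IFNβ for 2 h, 27067 with IFNβ for 7 h, 12812 with 1 h TCR, 31791 with IFNβ and 1 h TCR, 20121 with 6 h TCR and 21938 with IFNβ and 6 h TCR. The 6 h arrays lay just below and just above the untreated ones, and the 1 h TCR arrays were the lowest and the highest of all 8.

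Nup210, a membrane protein of the pore, also did not pass the test. Its signal was 44711 and 42234 untreated, 50092 with IFNβ for 2 h, 78578 with IFNβ for 7 h, 33330 with 1 h TCR, 68614 with IFNβ and 1 h TCR, 34498 with 6 h TCR and 32282 with IFNβ and 6 h TCR. Both 6 h arrays were below every array without TCR, but the estimate, -0.65 ± 0.34, had an adjusted p of 0.17 by limma. Nup210l, a relative of Nup210, was the 1 gene that fell, by 1.42 ± 0.29 (adjusted p 0.0087, limma). It was dim, at 71.0 and 77.6 untreated, 63.6 with IFNβ for 2 h, 46.6 with IFNβ for 7 h, 42.1 with 1 h TCR, 36.8 with IFNβ and 1 h TCR, 20.4 with 6 h TCR and 25.7 with IFNβ and 6 h TCR, and it was well above background on 7 of 8 arrays.

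Importin α proteins are adaptors that read the classical nuclear localisation signal and hand the cargo to importin β. Of their 5 genes, 4 rose at 6 h. Kpna2 rose most, from 7278 and 7031 untreated to 42592 with 6 h TCR and 44976 with IFNβ and 6 h TCR. It stood at 3801 with IFNβ for 2 h, 4470 with IFNβ for 7 h, 13513 with 1 h TCR and 8737 with IFNβ and 1 h TCR. The arrays with IFNβ alone were lowest, and both 1 h TCR arrays already exceeded all arrays without TCR. The estimate at 6 h was 3.06 ± 0.28, or 8.36-fold (adjusted p 6e-04, limma). The lower 6 h array of Kpna2 was 5.85 times its highest array without TCR, an untreated one. Kpna3 rose by 1.89, Kpna1 by 1.66 and Kpna6 by 1.18. Kpna4, which serves NF-κB among other cargoes, had an estimate of -0.08 and did not pass.

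Importin β, encoded by Kpnb1, is the carrier that takes importin α and its cargo through the channel. Its signal was 5998 and 4986 untreated, 3738 with IFNβ for 2 h, 4437 with IFNβ for 7 h, 6802 with 1 h TCR, 4986 with IFNβ and 1 h TCR, 18032 with 6 h TCR and 19122 with IFNβ and 6 h TCR. The 6 h arrays stood clear of the rest, and the estimate was 2.00 ± 0.25, or 4.00-fold (adjusted p 0.0015, limma). Together with its relatives, which bind cargo directly, 6 of 8 genes rose.

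Ipo4 and Ipo5, carriers of histones and ribosomal proteins, rose most of all 42 genes. Ipo5 had 5258 and 4805 untreated, 2767 with IFNβ for 2 h, 2144 with IFNβ for 7 h, 6591 with 1 h TCR, 4401 with IFNβ and 1 h TCR, 45322 with 6 h TCR and 42978 with IFNβ and 6 h TCR. Ipo4 had 3554 and 3910 untreated, 1586 with IFNβ for 7 h, 7577 with 1 h TCR, 4981 with IFNβ and 1 h TCR, 41700 with 6 h TCR and 37554 with IFNβ and 6 h TCR, its spot for IFNβ 2 h being an outlier that the fit left out. The lower 6 h array was 9.61 times the highest array without TCR in Ipo4 and 8.17 times in Ipo5. Their probes lie at chr14:56244778-56244837 and chr14:121345317-121345376 of mm9. The estimates at 6 h were 4.02 ± 0.35 for Ipo4, or 16.3-fold (adjusted p 0.00083, limma), and 3.73 ± 0.30 for Ipo5, or 13.3-fold (adjusted p 0.00046, limma). Ipo7, a further carrier of ribosomal proteins, rose by 2.54. Ipo11 rose by 2.09 and Ipo13, which works in both directions, by 1.38. Ipo9 (0.48) and Ipo8 (-0.05) did not pass.

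The 3 transportins, which recognise signals in RNA-binding proteins, all rose. Tnpo1 had 6325 and 6848 untreated, 4658 with IFNβ for 2 h, 6575 with IFNβ for 7 h, 9640 with 1 h TCR, 5872 with IFNβ and 1 h TCR, 14621 with 6 h TCR and 17096 with IFNβ and 6 h TCR. Its 1 h TCR arrays fell on either side of the untreated ones and its 6 h arrays above all others. The estimate for Tnpo1 was 1.39 ± 0.30 (adjusted p 0.011, limma), beside 1.30 for Tnpo2 and 0.99 for Tnpo3, the carrier of splicing factors rich in serine and arginine.

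Among the exportins 5 of 6 genes rose. Xpot, the exporter of transfer RNA, had 2538 and 2477 untreated, 2267 with IFNβ for 2 h, 2215 with IFNβ for 7 h, 2659 with 1 h TCR and 2874 with IFNβ and 1 h TCR. With 6 h TCR it had 28516, and with IFNβ and 6 h TCR 27979. The first 6 arrays spanned little, and the step to 6 h was 3.60 ± 0.22, or 12.1-fold (adjusted p 0.00035, limma). Xpo5, which exports precursor microRNAs, rose by 1.78. Xpo4, which carries the translation factor eIF5A, rose by 1.70, Xpo7 by 0.91 and Xpo6, the exporter of actin with profilin, by 0.74. The call of Xpo7 held in 11 and that of Xpo6 in 8 of 19 alternative fits.

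Xpo1, the general exporter of proteins with a leucine-rich export signal, was not among the genes that rose. Its signal was 15908 and 14912 untreated, 8240 with IFNβ for 2 h, 9585 with IFNβ for 7 h, 8542 with 1 h TCR, 12366 with IFNβ and 1 h TCR, 7187 with 6 h TCR and 7009 with IFNβ and 6 h TCR. The untreated arrays were the highest and the 6 h arrays the lowest of the 8. The estimate at 6 h was -0.62 ± 0.34 (adjusted p 0.19, limma). All 3 Xpo1 probes had estimates below 0, from -1.75 to -0.62, and the probe used here lies at chr11:23196643-23196702 of mm9. The others were dim, with mean signals of 49.8 and 51.4 beside 9398, and were well above background on 6 and 7 arrays.

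**Figure D3:**
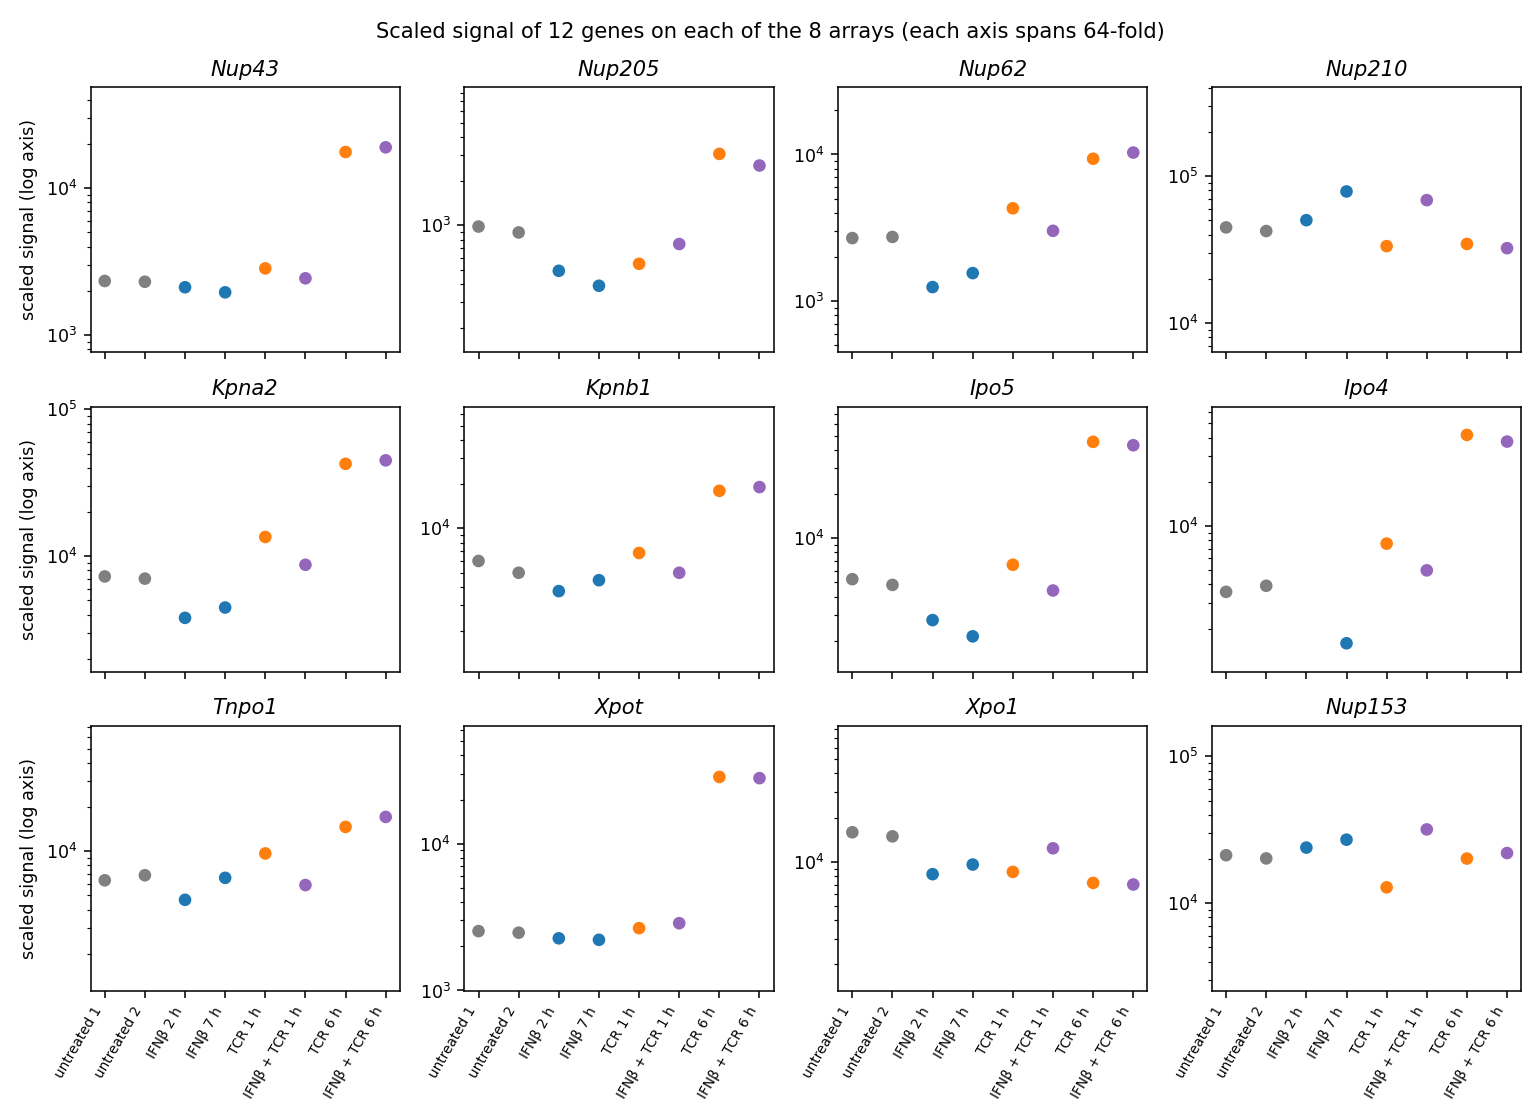
Scaled signal (log axis) of 12 genes on each of the 8 arrays, with untreated arrays in grey, IFNβ alone in blue, TCR alone in orange and IFNβ with TCR in purple; each point is 1 array. Nup43 and Xpot stay level until the 6 h arrays, Kpna2, Nup62, Ipo4 and Ipo5 are lowest with IFNβ alone and highest at 6 h, and Xpo1 is lowest at 6 h.

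The genes that rose together were read for short motifs at their start sites. Windows of 300 bases, from 250 before to 50 after the start, come from RefSeq on build GRCm38.p6 and were matched by symbol for 33 of the 42 genes, with 40 windows among them. Kpna1, Kpna3, Kpna6, Nup35, Nup43, Nup85, Nup210l, Xpo4 and Xpo7 had no entry. On either strand, CACGTG (the E-box that MYC and related factors bind) was in 17.5% of these windows and in 7.15% of all 32851 windows. GGGCGG (a GC box) was in 65.0% and 35.7%, and CCAAT in 52.5% and 37.4%, none of these motifs being contained in another. By gene, CACGTG was present for 7 of 25 genes that rose and 0 of 8 that did not. GGGCGG was present for 18 of 25 and 6 of 8, and CCAAT for 13 of 25 and 5 of 8. Shares by gene were not taken over all genes. These are counts of letters in short windows and were not tested.

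The 3 risers with the largest estimates among those that hold CACGTG before the start, and Xpo1, which holds none and did not rise, are printed below as the 250 bases before the start, on the strand of the gene. Capitals mark these 3 motifs on either strand. The windows are chr10:121626333-121626582 on the minus strand for Xpot, chr7:110018065-110018314 and chr2:30286166-30286415 on the plus strand for Ipo7 and Nup188, and chr11:23255791-23256040 on the plus strand for Xpo1, all of GRCm38.p6.
Xpot: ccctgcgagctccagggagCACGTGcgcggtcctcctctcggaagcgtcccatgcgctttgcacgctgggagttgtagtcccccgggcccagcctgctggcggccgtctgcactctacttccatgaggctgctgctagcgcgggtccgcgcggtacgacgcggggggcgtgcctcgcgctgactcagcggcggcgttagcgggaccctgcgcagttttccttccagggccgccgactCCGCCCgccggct
Ipo7: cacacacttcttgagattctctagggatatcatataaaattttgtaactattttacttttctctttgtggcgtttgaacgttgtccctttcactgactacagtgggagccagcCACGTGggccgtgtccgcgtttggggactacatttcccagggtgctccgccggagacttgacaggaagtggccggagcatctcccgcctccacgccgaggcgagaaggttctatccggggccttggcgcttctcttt
Nup188: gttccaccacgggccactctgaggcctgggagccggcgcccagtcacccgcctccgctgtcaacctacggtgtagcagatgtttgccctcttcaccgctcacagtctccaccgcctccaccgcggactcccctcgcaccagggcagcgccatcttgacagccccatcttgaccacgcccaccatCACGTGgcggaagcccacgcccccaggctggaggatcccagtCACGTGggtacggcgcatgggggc
Xpo1: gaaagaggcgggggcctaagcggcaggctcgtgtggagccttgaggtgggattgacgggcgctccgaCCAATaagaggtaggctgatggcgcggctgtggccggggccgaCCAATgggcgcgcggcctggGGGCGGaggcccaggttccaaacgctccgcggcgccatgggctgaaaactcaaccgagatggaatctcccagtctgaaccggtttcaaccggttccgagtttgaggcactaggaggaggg
The CACGTG of Xpot starts 231 bases before the start site and that of Ipo7 137 bases before it, while Nup188 has 2, at 66 and 24 bases. Xpo1 has 1 GGGCGG and 2 CCAAT. In Ipo4 the CACGTG lies after the start site, and Nup54, Nup93 and Tnpo2 hold the others.

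At 1 h of TCR stimulation none of the 42 genes passed the test, which used the brightest probe of each. An unadjusted p under 0.05 by limma was found for 6 of the 42, beside 4592 of 19554 over all genes. Past the adjusted threshold, 2.64% of all genes were higher and 1.75% lower at this time. The median estimate was 0.067 over the 42 genes and -0.048 over all genes. The largest estimates were 1.34 ± 0.35 for Ipo4, 1.10 ± 0.28 for Kpna1, 1.05 ± 0.28 for Kpna2 and 0.97 ± 0.32 for Nup62, with adjusted p values of 0.10, 0.083, 0.093 and 0.14 (limma). Kpna1, one of the importin α adaptors, had 4462 and 4123 untreated, 3518 with IFNβ for 2 h, 2974 with IFNβ for 7 h, 6526 with 1 h TCR, 8988 with IFNβ and 1 h TCR, 11554 with 6 h TCR and 11011 with IFNβ and 6 h TCR. Both of its 1 h arrays were above every array without TCR. The measured 1 h arrays were above in 13 of the 42 genes, a count not made over all genes. Among the 13, Nup98 had only 1 measured array at 1 h. With the untreated arrays as 2 separate samples, or with only probes well above background on all 8 arrays, 3 genes were called higher at 1 h, or 7.14% and 7.5% of those tested, beside 6.42% and 5.35% of all genes.

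Both times were set against the same arrays without TCR, and the difference between 1 h and 6 h was itself tested. At 6 h 28 of the 42 genes were higher than at 1 h and 0 were lower, where 16.7% of all genes were higher and 15.7% lower. All 28 were among the 33 that rose at 6 h. The largest steps were 3.35 ± 0.24 for Xpot, 3.03 ± 0.33 for Ipo5, 2.80 ± 0.24 for Nup43 and 2.69 ± 0.37 for Ipo4, with adjusted p values of 0.0015, 0.0024, 0.0017 and 0.0063 (limma). Of the genes that rose at 6 h, 12 had an estimate below 0 at 1 h, the lowest being Tnpo2 at -0.68 and Xpo7 at -0.43. The other 5 that rose at 6 h did not pass the test of the step: Tnpo1 at 1.07, Nup50 at 0.80, Nup98 at 0.61, Kpna1 at 0.56 and Nup35 at 0.40. The 1 h arrays were all on slide 1 and the 6 h arrays on slide 2. With slide as a block the count was 16, where 8.01% of all genes were higher, and with normexp 14, where 6.53% were. Some fits had only 1 array at a TCR time. The median step of the genes tested was 1.35 without the TCR 1 h array and 1.43 without IFNβ with 1 h TCR (all genes 0.14 and 0.030). Without IFNβ with 6 h TCR it was 1.18 (all genes 0.15).

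With IFNβ none of the 42 genes passed the test. Across its 4 arrays against the 3 samples without it, 0 genes were called in either direction. An unadjusted p under 0.05 by limma was found for 1 of the 42, beside 1686 of 19555 over all genes. Over all genes 0.0665% were called higher and 0% lower. The median estimate was -0.17 over the 42 genes and -0.0040 over all genes, and 32 of the 42 estimates were below 0. The largest were -0.66 ± 0.28 for Ipo4, -0.62 ± 0.25 for Ipo5, 0.55 ± 0.27 for Nup153 and -0.50 ± 0.26 for Nup62 (adjusted p 0.61, 0.58, 0.65 and 0.66, limma). These values rested on the naming of the 1 h TCR arrays: with the names of the scanner files they were -0.26 for Ipo4, -0.27 for Ipo5, -0.24 for Nup153 and -0.19 for Nup62, and the median was -0.11. Of 40 genes measured in all 4 pairs with and without IFNβ, 13 were lower with it in the 3 pairs free of that naming. Of those 3 pairs 2 share the untreated arrays, and the count was not made over all genes.

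Single arrays, which allow no test, showed where the lower values lay. With IFNβ alone for 2 h, 33 of 41 genes were below the untreated mean, with a median of -0.31 against 0.069 for all genes. With IFNβ for 7 h, 34 of 42 were below it, with a median of -0.30 against 0.12. Past 2-fold, 0 genes were higher and 1 lower at 2 h (all genes 10.1% and 5.12%), and 0 higher and 4 lower at 7 h (10.7% and 6.97%). The gene past 2-fold at 2 h was Nup62, at -1.12. Those at 7 h were Nup205 at -1.27, Ipo4 and Ipo5 at -1.23, and Nup93 at -1.02.

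On top of TCR stimulation the differences centred near 0. At 1 h of TCR the median was -0.043, and 2 of 41 genes were at least 2-fold higher with IFNβ and 0 lower (all genes 10% and 5.59%), namely Nup153 at 1.31 and Nup210 at 1.04. These signs turn with the naming of the 2 arrays. At 6 h of TCR the median was 0.0033 and the 42 genes lay between -0.40 and 0.34, with 0 past 2-fold in either direction (all genes 2.34% and 3.13%). Between the untreated arrays 0 genes differed 2-fold (all genes 2.97%), and the SD over the genes was 0.090, beside 0.17 for the 6 h TCR pair, 0.43 for the 1 h TCR pair, 0.35 for IFNβ 2 h and 0.44 for IFNβ 7 h.

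**Figure D4:**
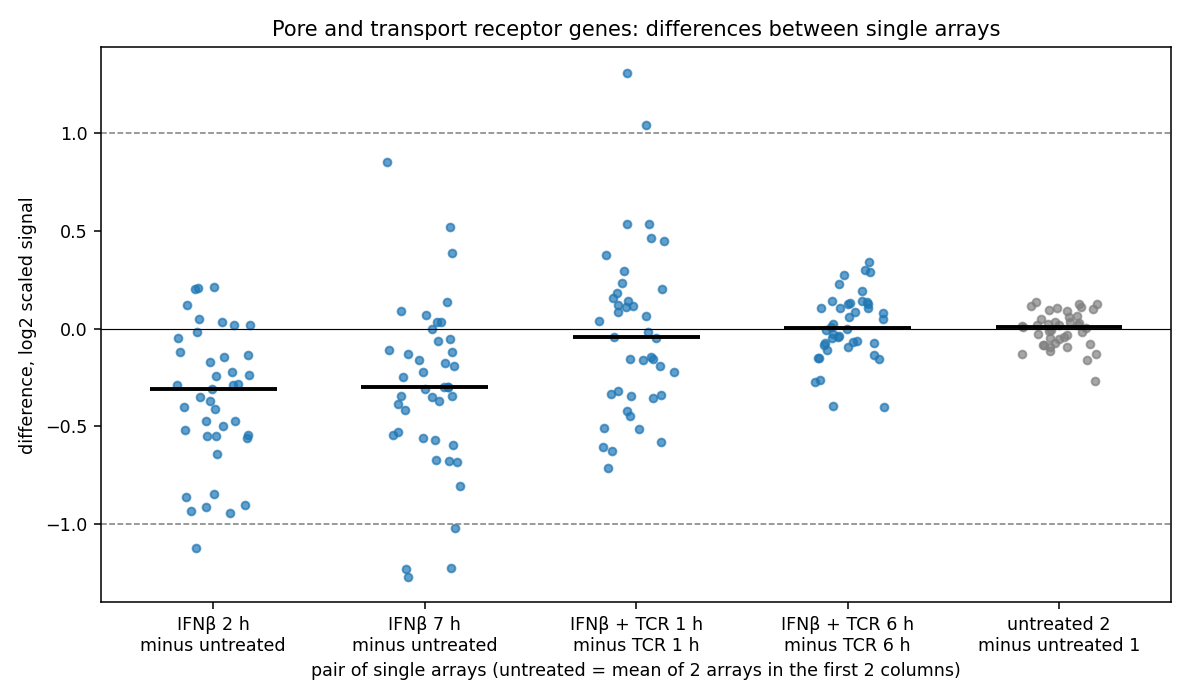
Differences of log2 scaled signal between single arrays for the pore and transport receptor genes, with 1 point per gene, a bar at the median and dashed lines at 2-fold; the first 4 columns compare arrays with and without IFNβ and the last compares the untreated arrays. Medians are -0.31 and -0.30 for IFNβ alone and near 0 for the other columns, and the 6 h TCR pair stays within 2-fold.

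Whether the IFNβ difference depended on TCR stimulation was tested with interaction terms, which left 1 residual degree of freedom. That holds only the difference between IFNβ 2 h and IFNβ 7 h, which were on different slides. None of the genes passed for 1 h TCR, for 6 h TCR or for the difference between them, and 0% of all genes did in each (limma). At an unadjusted p under 0.05 there were 2 of the 41 genes tested for 1 h TCR and 0 of 42 for 6 h. These were Nup205, at 1.55 ± 0.51 (adjusted p 0.64), and Xpo1, at 1.33 ± 0.48 (adjusted p 0.65). With the scanner files' names they were 0.66 and 0.26, and 85 of all genes but 0 of the 41 were called. The largest estimates for 6 h TCR were 1.24 ± 0.47 for Nup93 and 1.10 ± 0.50 for Nup62 (adjusted p 0.64 and 0.70, limma). After normexp 13 of the genes were called higher and 2 lower for 1 h TCR, when 1287 of all genes were called higher and 9322 lower.

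Other genes of the pore and of its transport cycle, from a list of 37 that do not carry the names above, moved with these at 6 h of TCR. Of the 37, 27 rose, 1 fell and the median estimate was 1.45. Over all genes tested 22.6% were higher and 22.7% lower, with a median of 0.056. All 7 genes of the Ran cycle rose, with a median of 2.81. They were Rcc1, the exchange factor that loads Ran with GTP on chromatin (4.23 ± 0.34, adjusted p 0.00046, limma), Rangrf, a Ran-binding release factor (3.84), Nutf2, which brings Ran back into the nucleus (3.03), Ranbp1 (2.81) and Rangap1 (2.10), which turn Ran to its GDP form, Ran itself (2.38) and Ranbp3, a cofactor of Xpo1 (0.95). Rcc1 went from 1959 and 2018 untreated to 21907 with 6 h TCR and 21345 with IFNβ and 6 h TCR, and was 817 and 742 with IFNβ alone for 2 h and 7 h. Its 6 h arrays were far above the others and its arrays with IFNβ alone the lowest.

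Of the 12 mRNA export genes 9 rose, led by the helicase Ddx39 at 2.76. Of the 4 other receptors 2 rose, Cse1l, the exporter that returns importin α to the cytoplasm, at 1.80 and Snupn at 1.35. Of the 14 pore genes that carry other names 9 rose, led by the membrane protein Tmem48 at 2.32. The gene that fell was Gle1, an mRNA export factor of the cytoplasmic face, at -1.05 ± 0.25 (adjusted p 0.015, limma), named here after its value was seen. Its signal was 3996 and 3865 untreated, 4530 and 3844 with IFNβ for 2 h and 7 h, 2231 with 1 h TCR, 1903 with IFNβ and 1 h TCR, 2380 with 6 h TCR and 1699 with IFNβ and 6 h TCR, so that all arrays with TCR were below all arrays without it. None of the 37 passed at 1 h of TCR, where 2.64% of all genes were higher and 1.75% lower. None passed with IFNβ either, where 0.0665% of all genes were higher and 0% lower.

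**Figure D5:**
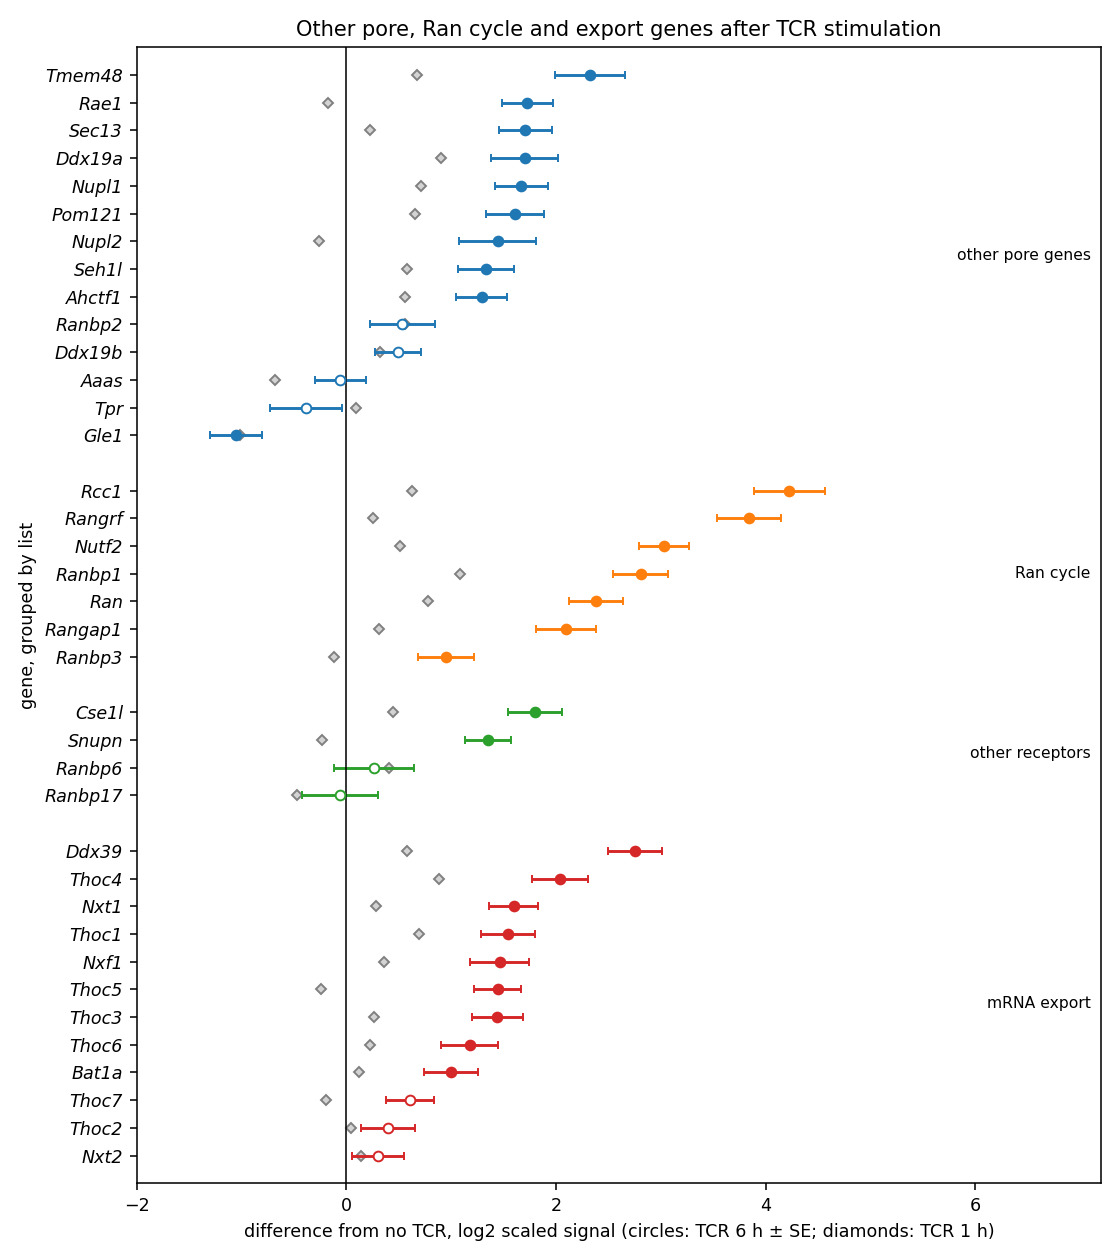
Log2 difference of scaled signal from cells without TCR stimulation for 37 further genes of the pore, the Ran cycle, other receptors and mRNA export; circles are 6 h of TCR with SE (filled at an adjusted p under 0.05) and diamonds are 1 h. The 7 Ran cycle genes are all filled, with Rcc1 at 4.23, and Gle1 is the filled point below 0.

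The array carried 95 probes for the 42 genes, of which 92 passed the filter, and the brightest was used for each gene. For 30 genes more than 1 probe passed, and in 3 of them the probes differed in sign at 6 h. In Xpo7 a dim probe had an estimate of -4.11 where the bright one had 0.91. Its coordinates, chr14:71059726-71059785 of mm9, run on the plus strand, and those of the bright probe, chr14:71064714-71064773, on the minus strand. The mean over both Xpo7 probes was -1.60. In Kpna4 and Ipo8 the bright probe was near 0 and others reached 0.50 and 0.56. In Nup98 a pair of probes other than the brightest had estimates of 2.05 and 1.76 at 1 h and of 1.99 and 1.84 at 6 h, where the brightest had 0.76 and 1.37. At 1 h the other Nup50 probes had 1.11 and 1.25 where the brightest had 0.21. Another bright Ipo5 probe had 1.22 at 1 h beside 0.69. In the other direction, dim probes had -1.13 and -1.02 at 1 h in Xpo1 and -2.65 in Xpo7. The brightest had -0.08 and -0.43 in these genes. The dimmest probes of the genes that rose most had smaller estimates at 6 h, 1.68 beside 4.02 in Ipo4 and 0.96 beside 3.73 and 4.02 in Ipo5. Probes lay close together in Xpot, at 3.55 and 3.60, and in Nup43, at 3.03 and 3.09.

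The cells' markers were checked beside these values. All 8 CD8 T cell markers were well above background on all 8 arrays, and their summed signal was 645803 to 893874 on arrays without TCR, 692646 and 979826 at 1 h, and 574222 and 574654 at 6 h. Cd8a and Cd8b1 were among 3 of the 8 that fell at 6 h, and Cd5 rose. Of 8 B cell markers, 5 were well above background on all arrays and Pax5 on none. Their summed signal was 14904 and 14625 untreated, 47980 and 40274 with IFNβ alone for 2 h and 7 h, 13167 and 12419 on the 1 h TCR arrays and 5256 and 6036 on the 6 h TCR arrays, and 5 of 7 tested fell at 6 h. Summed markers of class II presenting cells were 23342 and 22953 untreated, 52176 and 31059 with IFNβ alone, and 10591 and 13630 at 6 h. B cell markers were thus highest on the arrays with IFNβ alone, where most of the 42 genes were lower, and lowest at 6 h of TCR, where most were higher. Their part in these differences was not tested. NK and erythroid sums were also highest with IFNβ alone. For NK they were 283 and 291 untreated, 640 and 753 with IFNβ alone, and 214 and 240 at 6 h of TCR. For erythroid markers they were 3767 and 3757, 12582 and 11373, and 4678 and 7690. Their part was not tested either. Over all 8 arrays the sums ran from 2161 to 5324 for myeloid, 195 to 753 for NK, 195 to 758 for CD4 T and 3757 to 12582 for erythroid markers. The 758, on the TCR 1 h array, was mostly Cd40lg at 539.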

How the data were processed

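The authors deposited single-colour Agilent scanner files, whose processed signal is an intensity after background subtraction. Feature Extraction was version 10.7.3.1 per the file headers and 9.5.3.1 per the submitters' processing notes, and probe positions are on mm9 per the file headers. The authors' deposited value table holds the same intensity values times a factor per array of 1.2088 to 1.8567, with no centring. Its column medians were 89.57, 92.25, 102.4, 100.62, 92.62, 95.78, 80.68 and 73.76. Of its 8 columns, 6 matched their own scanner file, and those of the 1 h TCR pair matched each other's.

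Here, log2 intensity minus each array's 75th percentile was used, without control or outlier spots, and no spot was saturated. Of 41174 probes, 28573 were well above background on at least 2 arrays, and the brightest over the 7 conditions stood for each gene. An additive model with terms for IFNβ, TCR 1 h and TCR 6 h was fitted to 7 samples, leaving 3 residual degrees of freedom, in limma 3.58.1 (R 4.3.3), with Benjamini-Hochberg adjustment over all genes at 0.05. The interaction model took IFNβ 2 h and 7 h as 1 condition. The fits were tested on simulated data. Genes given with every array's signal follow a rule by role and size of estimate. The genes and lists were chosen with earlier results of these data known. Scaling, normalization, background, filter, probe, slide, naming and left-out arrays were varied. Protein sequences were not used here.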

Additional observations from a re-analysis of the deposited data

Results flagged for a closer look

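Of the 42 genes, 28 differed between 6 h and 1 h of TCR stimulation by a test of that difference (limma, adjusted p under 0.05), and all were higher at 6 h. Over all genes 16.7% were higher and 15.7% lower. The log2 differences of the importins were 3.03 for Ipo5, 2.69 for Ipo4, 2.22 for Ipo11, 2.01 for Kpna2, 1.96 for Ipo7, 1.67 for Kpnb1, 1.45 for Ipo13, 1.35 for Kpna3 and 1.26 for Kpna6. Those of the exportins were 3.35 for Xpot, 2.15 for Xpo5, 1.59 for Xpo4, 1.34 for Xpo7 and 0.80 for Xpo6, and those of the transportins 1.98 for Tnpo2 and 0.87 for Tnpo3. Among the nucleoporins they were 2.80 for Nup43, 2.15 for Nup188, 2.13 for Nup205, 1.86 for Nup85, 1.83 for Nup133, 1.75 for Nup37, 1.50 for Nup160, 1.45 for Nup62, 1.42 for Nup93, 1.32 for Nup107, 1.31 for Nup54 and 0.91 for Nup155. The 1 h and 6 h arrays were on different slides. With slide as a block 16 of the 42 genes were higher at 6 h, beside 8.01% of all genes. No group held enough arrays to look for a sample far from the others.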

How the results depend on the processing

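Of the 33 genes higher at 6 h of TCR, 17 were called in each of 19 alternative fits, Ipo4 in each of the 18 that gave it a value, and 32 had estimates above 0 in all of them, the exception being Xpo7, at -1.60 with the mean over probes. The count at 6 h was 20 with normexp and 20 to 33 when each array was left out. The count of lower genes was 0 within slide 2, with normexp and with the filter on all 8 arrays, 2 with quantile normalization and with the mean over probes, and 0 to 1 with an array left out. For 6 h minus 1 h, 16 were higher with slide as a block, 14 with normexp and 14 to 28 with an array left out, and 1 was lower with quantile normalization. At 1 h, 3 were higher with the untreated arrays as 2 samples and with the filter on all 8 arrays, and 1 was lower with the mean over probes. With normexp the interaction called 13 higher and 2 lower at 1 h and, for 6 h minus 1 h, 2 higher and 4 lower. Over all genes that fit called 1287 higher and 9322 lower at 1 h. For 6 h minus 1 h it called 8786 of all genes higher and 784 lower. With the scanner files' names the IFNβ estimates of Ipo4, Ipo5 and Nup62 were -0.26, -0.27 and -0.19. Estimates that turned sign were Nup153 for IFNβ with the scanner files' names (-0.24) and, at 6 h of TCR, Ipo8 (0.26 with median scaling, 0.18 with the mean over probes), Kpna4 (0.24 and 0.31), Nup153 (0.23 with median scaling), Nup214 (-0.31) and Nup88 (-0.20) with quantile normalization. With an array left out, Ipo8 ranged from -0.16 to 0.078, Kpna4 from -0.25 to 0.065 and Nup153 from -0.36 to 0.25. The cause was not tested. Of 1021 alternative values for single genes, 935 kept direction and side of the threshold, 65 lost the call, 8 gained it and 13 turned sign. Slides alone gave no 6 h minus 1 h or interaction value, and few interaction fits could lose an array. No paired analysis was possible because the labels number only the untreated arrays; slide was fitted as a block instead.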
